A study of Sus scrofa with 8 samples.

Results

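Transcripts detected in Meishan endometrium only were sought among the 23999 non-control probesets of the Affymetrix Porcine Genome array, and 2 met the rule (0.00833%). A probeset is a set of short probes designed to read a porcine transcript sequence, and some probesets are annotated to several genes. The members were chosen by their measured signals in both breeds. A member had to have a centred signal of at least 128 in all 4 Meishan gilts and of less than 64 in all 4 Yorkshire gilts. The centred signal is the deposited linear intensity after each array was centred on its median on the log2 scale, with the mean of the 8 medians, 183, put back. These levels stand in for detection, since no detection call was used here, and a signal below 64 does not show that a transcript was absent.

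The animals were 8 pregnant gilts of the Meishan and Yorkshire breeds, 4 of each, and 1 array was hybridized per gilt. All gilts had been mated naturally to boars of their own breed at the second or the third estrus, and endometrium, the lining of the uterus, was taken on day 12 of gestation after slaughter. Only uteri in which every conceptus had reached the filamentous stage were used. Within a breed the gilts were separate animals, and the small number of arrays limits how precise any value can be. Breed of the dam and breed of the conceptus cannot be told apart in this design.

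Meishan is a Chinese breed known for large litters, and Yorkshire is a Western commercial breed. At this stage of pregnancy pig conceptuses elongate rapidly and release estrogen, and the glands and luminal epithelium of the endometrium respond with secretion into the uterine lumen. In whole tissue a lower signal from fewer cells of a type and one from less RNA per cell cannot be told apart.

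The first member, Ssc.29841.1.A1_at, carries no gene name in the annotation of the array or in the gene table of the study. Its signal in the Meishan gilts 1 to 4 was 236, 152, 191 and 152. In the Yorkshire gilts 1 to 4 it was 5.87, 21.6, 27.4 and 3.02. The Meishan gilts lay close together near the median of their arrays and the Yorkshire gilts lay far below them, so the breeds did not overlap. The geometric mean signal was 180 in Meishan and 10.1 in Yorkshire, where 7.37% of all probesets were dimmer. The lowest Meishan gilt was 5.53-fold above the highest Yorkshire gilt. The difference of the means was 4.15 on the log2 scale (SE 0.68, n = 4 gilts per breed), and it was 2.49 when signals below 32 were set to 32. The standard deviation on the log2 scale was 0.31 in Meishan and 1.52 in Yorkshire. Probesets of like signal had median standard deviations of 0.36 in Meishan (3554 probesets within 0.5 on the log2 scale) and 1.31 in Yorkshire (1414 probesets), and this member stood at the 37.8 and the 64.2 percentile of them.

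The second member was Ssc.27289.1.S1_at. The gene table of the study names it GRIK2, a subunit of kainate receptors, which are ion channels opened by glutamate, whereas the annotation of the array gives it no name. Its signal was 890, 482, 131 and 846 in the Meishan gilts 1 to 4. It was 63.6, 38.1, 60.1 and 33.6 in the Yorkshire gilts 1 to 4. Meishan gilt 3 lay far below the other Meishan gilts and only just above the level of 128, while Yorkshire gilt 1 lay just below the level of 64. The geometric mean was 467 in Meishan, at the 71.3 percentile of all probesets, and 47.0 in Yorkshire, at the 26.1 percentile. The lowest Meishan gilt was 2.07-fold above the highest Yorkshire gilt, and the difference of the means was 3.31 on the log2 scale (SE 0.61, n = 4 gilts per breed). This value did not move when signals below 32 were set to 32, because no gilt lay below that floor. The Meishan gilts spanned a 6.77-fold range. Their standard deviation of 1.28 on the log2 scale was at the 99.2 percentile of the 3527 probesets of like Meishan signal, whose median was 0.29. The Yorkshire standard deviation of 0.46 was below the median of 0.56 for the 2520 probesets of like Yorkshire signal.

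**Figure D1:**
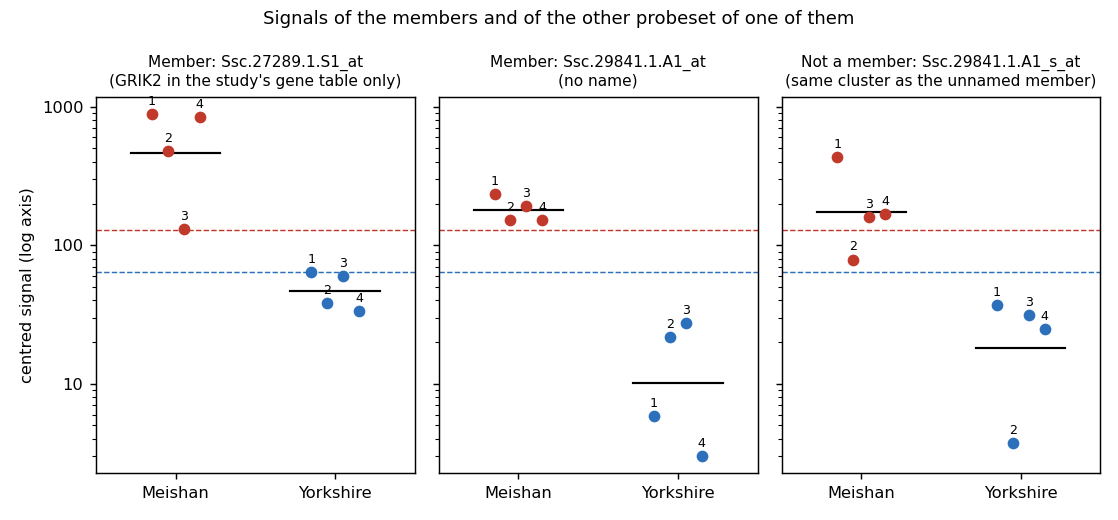
Centred signal (log axis) of both members and of the other probeset of the unnamed member's cluster in each gilt, numbered 1 to 4 within a breed, with black lines at the geometric means and dashed lines at 128 and 64. The unnamed member is tight in Meishan (152 to 236), the GRIK2-named member spans 131 to 890 there, and no Yorkshire gilt exceeds 63.6 in any panel.

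These signals had chosen the members, so they are a description with no test. In the breed comparison across all probesets by limma, 97 probesets passed an adjusted p under 0.1 toward Meishan (0.404%) and both members were among them. Nothing is read from this count, since the rule used the same contrast. At an adjusted p under 0.05, 22 probesets passed toward Meishan (0.0917%) and 0 of 2 members did. All 4 Meishan gilts lay above all 4 Yorkshire gilts for 1202 probesets (5.01%). With the breeds exchanged, the same levels found 4 probesets in Yorkshire only.

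The members differed in how firmly the rule held them. The margin, the distance on the log2 scale to the nearer level, was 0.245 for the unnamed member and 0.009 for the GRIK2-named member. Just outside the rule were 3 probesets that only the gene table of the study names. Ssc.22469.1.A1_at, named MRPL50, a protein of the mitochondrial ribosome, had a margin of -0.037 and signals of 127, 230, 269 and 176 in Meishan and of 33.6, 65.6, 31.5 and 53.8 in Yorkshire. Ssc.4664.1.S1_at, named ATPAF1, an assembly factor of mitochondrial ATP synthase, had a margin of -0.042 and signals of 128, 130, 124 and 205 in Meishan and of 54.6, 29.6, 52.5 and 5.25 in Yorkshire. Ssc.26464.1.A1_at, named TM9SF2, a membrane protein of endosomes, had a margin of -0.165 and signals of 191, 280, 114 and 151 in Meishan and of 39.8, 9.09, 48.7 and 38.0 in Yorkshire. Meishan gilt 1 and Yorkshire gilt 2 kept out the first of these, and Meishan gilt 3 the third. The second was kept out by Meishan gilt 3 and by Meishan gilt 1, which reached 128 only by rounding. In its margin the GRIK2-named member was nearer to each of these 3 probesets than to the unnamed member.

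The unnamed member had 1 other probeset in its cluster, the group of sequences from which a probeset was designed. That probeset, Ssc.29841.1.A1_s_at, had signals of 433, 78.9, 161 and 167 in the Meishan gilts 1 to 4. Its signals in the Yorkshire gilts 1 to 4 were 36.9, 3.71, 31.3 and 25.0. The breeds did not overlap here either, and Meishan gilt 2, at 78.9, kept it out of the rule. The means were 174 in Meishan and 18.1 in Yorkshire, a difference of 3.27 on the log2 scale (SE 0.81), which limma did not call. The lowest Meishan gilt was 2.14-fold above the highest Yorkshire gilt. Gilts were not ranked alike by the pair of probesets, since Yorkshire gilt 2 was the lowest of its breed on the one and above Yorkshire gilts 1 and 4 on the other. Both read the same cluster in the same RNA, so their signals are not independent measurements of the breeds.

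The GRIK2-named member had no other probeset of its cluster or symbol. Of 21 genes of glutamate receptors and their partners, the annotation of the array named a probeset for 2. GRIN1, a subunit of NMDA receptors, averaged 11.6 in Meishan and 31.2 in Yorkshire gilts. NETO2, a partner protein of kainate receptors, averaged 28.4 and 18.3. Both were below 64 in all 8 gilts and neither was called. The other 19 genes of that list, GRIK2 among them, had no probeset of that name in the annotation of the array, so no second probeset bore on the name.

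Names that only the gene table of the study gives were compared with the annotation of the array. It alone named 1075 of the 23999 probesets, and for 394 of them the annotation gives the same symbol to another probeset. Such a probeset stood among the 10 identifiers before the named one for 203 and among the 10 after it for 6, in the order of the deposited table. It was the identifier just before for 85 and just after for 4. Where both sources named a probeset, 1020 in all, the names differed for 236, and the kinds of difference were not examined. The MRPL50-named probeset just outside the rule had its annotated counterpart 1 place before it, and the ATPAF1-named one 3 places before it. The annotated ATPAF1 probeset had means of 231 in Meishan and 374 in Yorkshire, on the other side from the ATPAF1-named one (144 and 25.8). The names of these probesets are therefore not settled, the name GRIK2 could not be checked in this way, and the cause of the pattern was not tested.

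Each gilt was then left out of the rule in turn, so that its own signal took no part in the choice. The rule on 7 gilts chose 2 to 7 probesets, 29 in all over the 8 rounds, and the left-out gilt lay past the level of its own breed for 16 (55.2%). Those 16 are the members counted once in each round, by construction. The other 13 choices show which probesets 1 gilt kept out. Without Meishan gilt 2 the rule took 5 further probesets, among them CYP2C49 and a probeset annotated to several CYP2C genes, which are drug- and fatty acid-metabolizing cytochrome P450 enzymes, with 46.3 and 60.1 in that gilt. It also took PCDH11X, a protocadherin of cell adhesion, with 84.6, and the other probeset of the unnamed member's cluster, with 78.9. Without Yorkshire gilt 2 it took 4 further probesets, whose signals in that gilt were 91.5 to 168, so that gilt lay above the Yorkshire level on all of them. Meishan gilt 3 kept out 2 probesets, and Meishan gilt 1 and Yorkshire gilt 3 each kept out 1. Meishan gilt 4 and Yorkshire gilts 1 and 4 kept out 0. By way of background, 5393 probesets were below 64 in every Yorkshire gilt, and between 0.445% and 1.06% of these reached 128 in a given Meishan gilt. That share sets no condition on the other Meishan gilts, so it is not a like comparison for the 55.2%.

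A single level of 64 for both breeds, at least 64 in every Meishan gilt and below 64 in every Yorkshire gilt, found 57 probesets (0.238%), both members among them. With the breeds exchanged it found 26 (0.108%). These 57 lay near the level. In Meishan their geometric mean signals had a median of 92.9 and a range of 71.3 to 467. In Yorkshire they had a median of 37.3 and a range of 3.70 to 57.7. The Meishan mean was below 128 for 49 of them. The lowest Meishan gilt was at least 2-fold above the highest Yorkshire gilt for 10 of the 57, and the smallest such ratio was 1.06. Of the 57, 22 had no name (38.6%, against 52.7% of all probesets), 16 had a single symbol in the annotation of the array, 1 had several, and 18 were named by the gene table of the study alone. Of those 18, 8 carried a symbol that the annotation gives to another probeset, for 6 of them within the 10 identifiers before and for 0 within the 10 after. The median signal of the set was 81.1 to 99.6 in single Meishan gilts and 36.5 to 46.4 in single Yorkshire gilts. Meishan gilt 1 had the lowest median of its breed and lay lowest for 20 of the 57. Without it 155 probesets met the single level, against 80 to 98 without any other gilt.

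**Figure D2:**
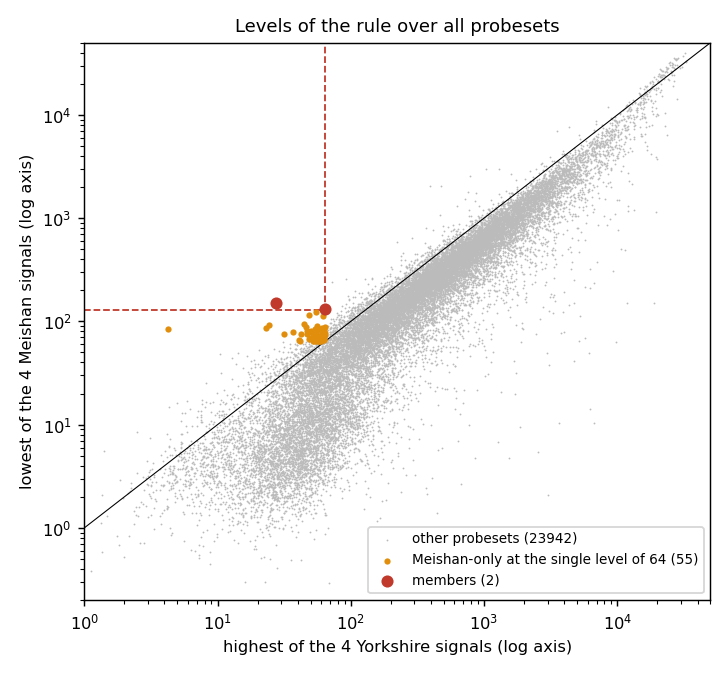
Lowest of the 4 Meishan signals against the highest of the 4 Yorkshire signals for 23999 probesets, on log axes, with the line of equality and the corner of the rule (128 and 64) dashed. The unnamed member lies inside the corner, the GRIK2-named member at its edge, and most of the other 55 probesets of the single level crowd just to the left of 64 below 128.

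The genes given next from the single level were chosen after their values were seen. The widest gap between the breeds' nearest gilts belonged to PCDH11X, on signals as deposited. Its probeset Ssc.27608.2.S1_a_at had signals of 179, 84.6, 166 and 190 in Meishan and of 2.93, 3.8, 4.24 and 3.99 in Yorkshire. Meishan gilt 2 alone kept it below 128, and the lowest Meishan gilt was 19.9-fold above the highest Yorkshire gilt. That gap rests on Yorkshire signals far below 64. With signals below 32 set to 32, the log2 difference of this probeset was 2.21, under those of the unnamed member (2.49), the other probeset of its cluster (2.39) and the GRIK2-named member (3.31). The first of its other probesets had signals of 87.8, 27.6, 66.6 and 161 in Meishan and of 3.17, 12.8, 27.5 and 12.5 in Yorkshire, with means of 71.4 and 10.9. The second had 84.3, 6.73, 107 and 69.2 in Meishan and 24.3, 29.5, 17.0 and 3.13 in Yorkshire, with means of 45.3 and 14.0. Both lay on the Meishan side without being called, at 2.72 (SE 0.74) and 1.70 (SE 1.03) on the log2 scale, and Meishan gilt 2 was the lowest of its breed on all 3 probesets.

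CPS1, the enzyme that makes carbamoyl phosphate for the urea cycle, had signals of 92.9, 118, 96.0 and 121 in Meishan. In Yorkshire it had 11.2, 20.2, 12.6 and 24.3. The gilts of each breed were close together, and the lowest Meishan gilt was 3.82-fold above the highest Yorkshire gilt. The difference was 2.71 on the log2 scale (SE 0.28), or 1.73 when signals below 32 were set to 32. Of the other 7 measured genes of the urea cycle and arginine supply, 0 were called, and OTC, which acts on carbamoyl phosphate in the next step, was below 64 in all 8 gilts with means of 7.07 and 7.93. ARG1, an enzyme of the last step, was below 64 in all gilts as well, with means of 18.6 and 18.7. The other 5, ASS1, ASL, ARG2, GLUL and OAT, were at 64 or above in all 8 gilts. ARG2, the other arginase, had means of 353 in Meishan and 387 in Yorkshire. CPS1 was thus the only one of these 8 genes that the single level took.

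The other annotated genes had narrower gaps, with the lowest Meishan gilt at most 1.63-fold above the highest Yorkshire gilt. CD79B, a chain of the B cell receptor complex, had means of 80.4 in Meishan and 34.3 in Yorkshire, with single gilts between 64.4 and 114 in Meishan and no higher than 41.7 in Yorkshire. It was the only B lymphocyte marker of 7 with an annotated probeset. UBXN2A, an adaptor of a protein-unfolding enzyme, had means of 92.9 and 30.4. CAPN3, a calcium-dependent protease best known from muscle, had means of 95.7 and 37.8. SPAM1, a hyaluronidase first known from sperm, had 107 and 49.4, and MYOZ1, a protein of muscle Z-discs, had 80.2 and 41.2. KCNN3, a calcium-activated potassium channel, had 79.1 and 16.7, with Yorkshire gilts between 2.97 and 56.8. Its other probeset lay on the Yorkshire side without being called, with means of 23.1 in Meishan and 43.9 in Yorkshire. Meishan gilts ranged from 4.59 to 127 on that probeset. Others were HNF4A, OCRL, TUFT1, UPTI and 3 entries without a gene name of their own. Several of these genes are best known from other tissues, and their signals were below the array median in both breeds.

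For 15 of the 57 probesets the annotation or the cluster gave 19 other probesets, and 8 of these were at 64 or above in all 4 Yorkshire gilts. UPTI, a plasmin and trypsin inhibitor secreted by the pig uterus, had means of 77.9 in Meishan and 39.0 in Yorkshire on the probeset of the set, and of 17200 and 12900 on its other probeset, with Yorkshire gilts of 10200 to 17900. OCRL, an inositol phosphatase, had 95.8 and 40.2 on the probeset of the set and 522 and 542 on the brightest other one. HNF4A, a transcription factor of liver and gut, had 111 and 55.4 and, on the other probeset, 160 and 170. TUFT1, a protein first found in tooth enamel, had 79.7 and 52.6 and, on the other, 203 and 158. These genes were read in both breeds by another probeset, so the single level did not hold for every probeset of a gene. Of the 19, 2 are the pair of the unnamed member's cluster. Of the other 17, 12 lay on the Meishan side (51.7% of all probesets did), 0 were called, 8 were at 64 or above in all Yorkshire gilts and 3 were below 64 in all 8 gilts. The counts by kind of link were small, and a difference between kinds was not tested. By symbol alone 3 of 5 other probesets lay on the Meishan side, with a median log2 difference of 0.00. By the names of the gene table of the study 11 of 21 did, and 17 of the 21 were at 64 or above in all Yorkshire gilts.

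**Figure D3:**
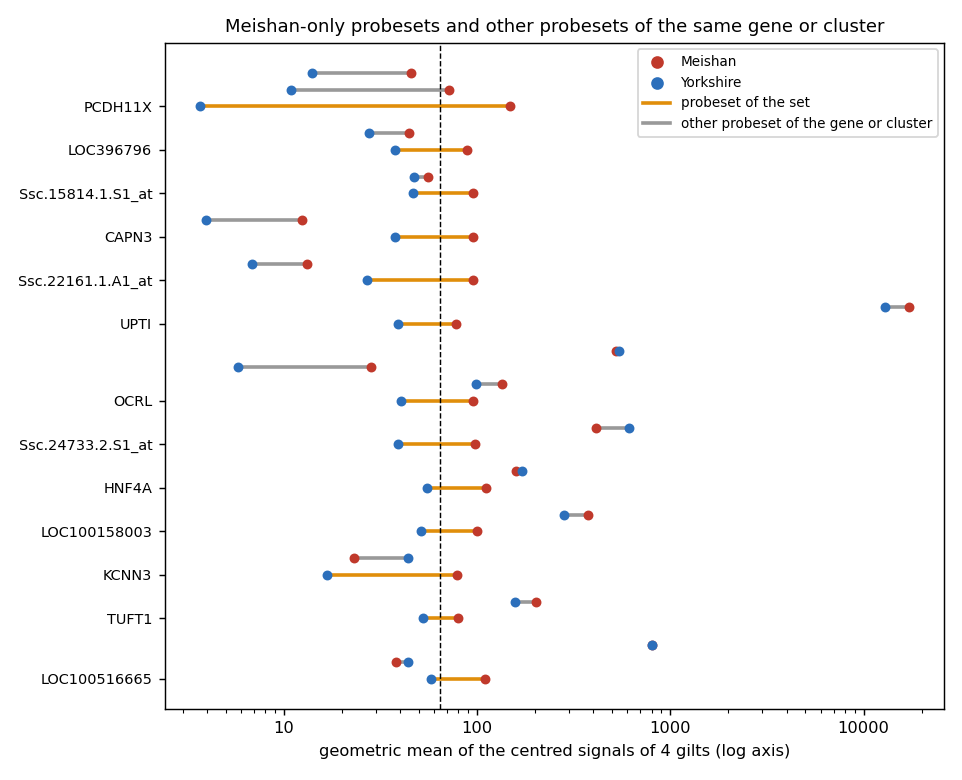
Geometric mean signal (log axis) in Meishan and Yorkshire for 13 probesets of the single level (orange lines) and 17 other probesets of the same gene or cluster (grey lines), with a dashed line at 64. The other probesets of UPTI, HNF4A and TUFT1 and the brightest other one of OCRL lie above 64 in both breeds, while a further OCRL probeset, at 28.4 and 5.82, lies below it.

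The single-level set depended on the scaling of the arrays. Without further scaling it held 53 probesets in Meishan only and 20 in Yorkshire only. After quantile normalization it held 33 and 45, and after cyclic loess normalization 26 and 51, so the excess of Meishan-only probesets turned into an excess of Yorkshire-only ones. Of the 57 probesets, 43 remained without further scaling, 31 with quantile and 8 with cyclic loess normalization. Dim probesets as a whole lay toward Meishan after centring on medians. When probesets were divided by signal into 10 groups of like size, the median log2 difference was 0.46 in the dimmest group, 0.22 in the group with a mean signal of 45.4 and 0.12 in that with a mean of 83.4. With quantile normalization these medians were 0.10, 0.00 and -0.02. The members kept their differences, at 3.92 and 3.20 on the log2 scale with quantile and 3.90 and 3.27 with cyclic loess normalization for the unnamed and the GRIK2-named member. Their place inside the levels did not hold as well, since the full rule found 1 member with quantile and, with cyclic loess, 1 probeset that is neither of them.

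**Figure D4:**
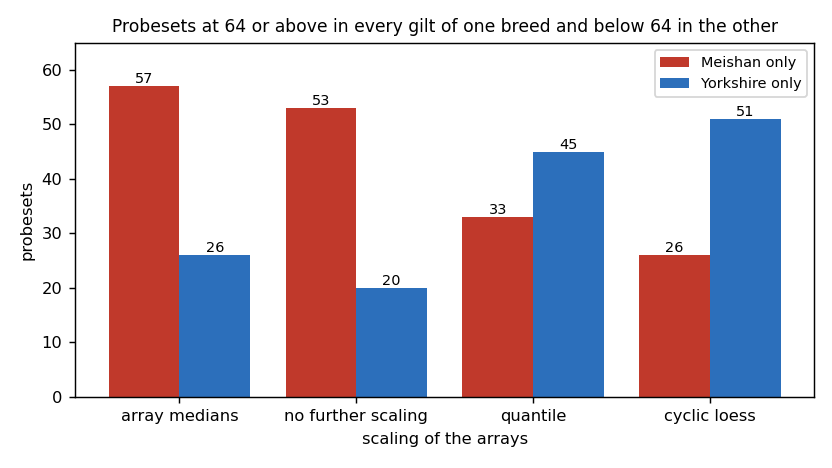
Number of probesets (bars from 0) at 64 or above in every gilt of one breed and below 64 in every gilt of the other, under 4 scalings. Meishan-only probesets outnumber Yorkshire-only ones at 57 to 26 and 53 to 20, and the order turns at 33 to 45 and 26 to 51.

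**Figure D5:**
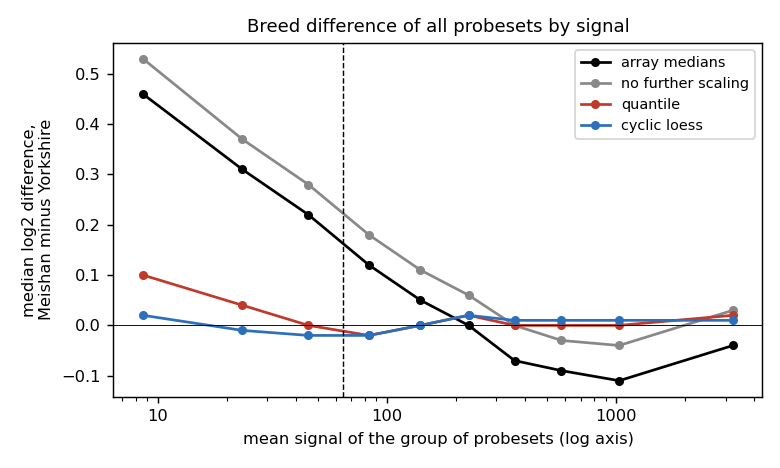
Median log2 difference, Meishan minus Yorkshire, of 10 groups of probesets of like size against their mean signal (log axis) under 4 scalings, with a dashed line at 64. Under median centring it falls from 0.46 in the dimmest group to -0.11 at a mean signal of 1030, and quantile and cyclic loess normalization hold it between -0.02 and 0.10.

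Genes were counted in 12 lists of pathways and families, with 147 measured genes. Of the 147, 6 carry a symbol of a probeset taken by the rule, the single level or the rule on 7 gilts. They are ATPAF1, CPS1, CYP2C32, CYP2C49, ORMDL1 and PCDH11X, so nothing is read from the share of calls among the 147. The lists of leukotriene synthesis, DNA repair, ubiquitin and UFM1 conjugation, and chromatin remodelling hold none of these 6. Of the 147, limma called 3 toward Meishan and 2 toward Yorkshire at an adjusted p under 0.1 (3.40%, against 0.908% of all probesets in either direction). The 3 toward Meishan are all among those 6. Among the other 141 it called 0 toward Meishan and 2 toward Yorkshire (1.42%). The median log2 difference of the 147 was 0.02, as it was over all probesets. Of 16 measured drug-metabolizing P450 enzymes and partners, 8 lay on the Meishan side (51.7% of all probesets did). Limma called 2 of them, both toward Meishan. Before adjustment, 5 of the 16 reached a limma p under 0.05, all toward Meishan (14.8% of all probesets reached it in either direction). The 5 include the 2 called, both among the 6 genes above, so nothing is read from this share either. CYP2C49 had signals of 160, 46.3, 219 and 136 in Meishan and of 13.2, 14.2, 3.63 and 16.6 in Yorkshire (log2 difference 3.56, SE 0.62, limma adjusted p = 0.0747). CYP2C32 had 54.5, 42.6, 142 and 51.4 in Meishan and 5.39, 18.7, 2.32 and 2.36 in Yorkshire (log2 difference 3.73, SE 0.71, limma adjusted p = 0.0920). Enzymes of the CYP2C family are close in sequence and a probeset annotated to several of them exists, so separate genes cannot be told apart here. Each call was lost when any of 7 of the 8 gilts was left out, and with signals below 32 set to 32, and that of CYP2C32 also without further scaling and with cyclic loess normalization.

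The called genes toward Yorkshire were UBE2G2, a ubiquitin-conjugating enzyme of protein degradation at the endoplasmic reticulum, with means of 215 in Meishan and 490 in Yorkshire, and BPTF, a subunit of a chromatin remodeller, with 614 and 1230 (limma adjusted p = 0.0628 and 0.0941). The call of UBE2G2 was lost without any of 6 gilts, and that of BPTF without any single gilt and under every other scaling of the arrays. The remaining call toward Meishan was CPS1, described above, and it held without each gilt in turn. Limma made 0 calls among the 2 glutamate receptor genes, 10 cadherins and protocadherins, 14 genes of endosome sorting, 18 of fatty acid uptake and triacylglycerol synthesis, 5 of leukotriene synthesis, 8 of sphingolipid synthesis, 15 of mitochondrial ATP synthase and 10 of DNA repair. Before adjustment, a p under 0.05 was reached in these lists by 3 cadherins and protocadherins, 2 leukotriene genes, 0 endosome genes and 1 gene in each of the other lists. Over all 147 list genes 20 reached it (13.6%), against 14.8% of all probesets. Among the 141 that carry no symbol of a chosen probeset, 15 did (10.6%).

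The tissue was checked against markers. All 7 measured markers of epithelium and all 6 of stroma were at 64 or above in all 8 gilts. Of 7 hepatocyte genes only ALB and APOH were below 64 in all gilts, and APOA1, an apolipoprotein, was at 5130 to 10300. Of 5 neuronal genes only SNAP25 was below 64 in all gilts. CYP19A1, the aromatase of the conceptus, was also below 64 in all gilts. The summed signal of 6 trophectoderm genes was 169 to 1190 in single Meishan gilts and 350 to 6820 in single Yorkshire gilts. IFNG, the interferon gamma that the pig conceptus secretes, gave 904 and 6290 of the highest sums, and without it the sums were 155 to 372 and 316 to 530. Of these 6 genes, 5 lay toward Yorkshire and 1 toward Meishan. TFAP2C was at 2.5 to 20.3 in Meishan and 26.2 to 71.1 in Yorkshire, without overlap or call (log2 difference -3.07, limma adjusted p = 0.105). Whether conceptus material differed between the breeds was not tested. Of 62 markers measured in the 12 lists, limma called 2 (3.23%, against 0.908% of all probesets), CD79B and KIT. CD79B was taken by the single level on these same signals, so nothing is read from this share. KIT, a receptor of mast cells, had means of 140 in Meishan and 403 in Yorkshire. Each call was lost without any of at least 7 single gilts. The other mast cell marker measured, MS4A2, lay the other way, with means of 164 in Meishan and 68.0 in Yorkshire, no overlap between the breeds and no call (log2 difference 1.27, limma adjusted p = 0.101). The 9 hybridization spike-in probesets, control RNAs added to the hybridization mix, had mean log2 signals of 11.49 to 12.37 on Meishan and of 10.42 to 10.97 on Yorkshire arrays. Their higher signal on Meishan arrays moves with the breeds, and its part in the members was not tested. No control probeset met the rule.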

How the data were processed

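Per the labels and the methods of the study, biotin-labelled cRNA of each gilt was hybridized to a one-colour Affymetrix Porcine Genome array, and the authors converted the images to signals with GCOS 1.2. The deposited intensities are these linear signals. Their mean after trimming 2% of values at each end averaged 500.1 over the 8 arrays. Of 24123 probesets, 124 controls were left out. Signals were put on the log2 scale and each array was centred on its median (168 to 195 as linear signal). Meishan and Yorkshire were compared with limma 3.58.1 in R 4.3.3 over 23999 probesets with Benjamini-Hochberg adjustment, calling an adjusted p under 0.1. The study used a mixed model in SAS. Its slide and animal terms have 1 value per array here and could not be fitted.

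Names came from the annotation of the array (10069 probesets with 1 symbol, 198 with several), then from the gene table of the study (1075), and 12657 had none. Each list gene was taken at its brightest annotated probeset. Named were members, the probesets at the levels, other probesets of members and some list genes, not always those of lowest p. The members and lists were chosen with earlier results of these data known. Alternatives were other scalings and levels, a floor of 32, an intensity trend, the replicate number as a block and leaving out each gilt. The single level of 64 was one of these, and its recounts under other scalings, without single gilts and with 64 RPTR probesets left out were added after seeing the data. Probe sequences and promoters were not analysed here. An annotated gene of the single level is not reported here.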

Additional observations from a re-analysis of the deposited data

Results flagged for a closer look

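For the 12 probesets given gilt by gilt (both members, the other probeset of the unnamed member's cluster, the 3 just outside the rule, the 3 of PCDH11X, and those of CPS1, CYP2C49 and CYP2C32), each breed's 4 signals on the log2 scale were examined for a gilt far from the others, with Dixon's ratio of its gap to the nearest neighbour over the whole range above the 95% critical value. Of the 24 groups, 6 were flagged. These probesets were chosen by the same signals, several because 1 gilt kept them out of the rule, so nothing is read from that count. On the ATPAF1-named probeset Meishan gilt 4 was high, at 205 (ratio 0.909). On the TM9SF2-named probeset Yorkshire gilt 2 was low, at 9.09 (ratio 0.852). Yorkshire gilt 2 was also low on Ssc.29841.1.A1_s_at, the other probeset of the unnamed member's cluster, at 3.71 (ratio 0.83). On the PCDH11X probeset of the single level Meishan gilt 2 was low, at 84.6 (ratio 0.837), and so it was on the second of the other PCDH11X probesets, at 6.73 (ratio 0.843). On CYP2C49 Yorkshire gilt 3 was low, at 3.63 (ratio 0.848). The 2 members held no such gilt in either breed, although Meishan gilt 3 lay well below the other Meishan gilts on the GRIK2-named member.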

How the results depend on the processing

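The rule found 2 members. It found 2 with no further scaling and with RPTR probesets left out, 1 with quantile normalization, 1 with cyclic loess normalization (neither of the 2), 1 with the Yorkshire level at 32, 0 with the Meishan level at 256, 57 with both levels at 64, and 2 to 7 without single gilts, the most without Meishan gilt 2 (7) and Yorkshire gilt 2 (6). The single level of 64 gave 57 probesets, 53 with no further scaling, 33 with quantile and 26 with cyclic loess normalization, and 80 to 155 without single gilts, the most without Meishan gilt 1. Fewer gilts make the rule easier to meet. Its count of Meishan-only less Yorkshire-only probesets, 31, was 33 with no further scaling, turned to -12 with quantile and -25 with cyclic loess normalization, and was 36 to 116 without single gilts. The share of left-out gilts past their level, 55.2%, was 40.0% to 58.8% under the alternatives tried. By construction it counts the members of each setting once per round, so it does not measure how they hold in a new gilt.

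Limma called 2 of 2 members under the other scalings, the floor of 32 and the intensity trend, 0 at an adjusted p under 0.05, and 0 to 1 without single gilts. With the replicate block it called 0 of them, 0 of the list genes and 0 of all 23999 probesets. Gilts that share a replicate number did not deviate together, with correlations of -0.0561, 0.0890, 0.0010 and 0.0407 over all probesets, so the block bears only on the count of calls. The 5 called list genes became 8 with the floor of 32, 5 with quantile normalization and 7 when each gene was averaged over its probesets. The log2 differences of both members, and that of the other probeset of the cluster (3.27, or 2.50 to 3.65 without single gilts), kept their direction under every scaling and without each gilt. By symbol alone the members have no other probeset. No detection call was used and signals were not compared with a noise level here, so the order of values far below 64 is uncertain. The 4 gilts per breed limit each call.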
